A study of Mus musculus with 18 samples.

Results

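DNA replication and mitosis genes were followed as a list of 49 symbols across 18 mouse arrays in 6 groups of 3. Of these, 48 were measured, among 19937 genes that had a probe set annotated with a single gene symbol. No expression value of Ccnb1 is analysed here. Where a gene had several such probe sets, the one with the highest mean over the 18 arrays was used, which concerned Pcna and Top2a. The list was read in 3 classes. Replication held 23 genes, of which 9 form or load the helicase at origins (licensing, with Mcm10 counted here), 11 activate it or work at the fork and 3 supply nucleotides. The cyclin/CDK class held 13 genes, 9 of them G1 and S phase cyclins, their kinases and Cdc25a, and 4 of them cell cycle transcription factors. The mitotic class held 12 genes.

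The cells came from a reprogramming series. EOS3F-24, EOS3F-28 and EOS3F-29 are induced pluripotent stem (iPS) lines, each 1 clone, made from CD1 mouse embryonic fibroblasts (MEFs) with the retroviral vectors pMX-Oct4, pMX-Klf4 and pMX-Sox2. The 2i-converted group was EOS3F-24, labelled a partial iPS line, after exposure to a MEK inhibitor (2 μM) and a GSK inhibitor (12 μM) in ES cell medium with LIF. The other groups were EOS3F-24 without that cocktail (called partial cells below), EOS3F-28 and EOS3F-29 (labelled full iPS lines), J1 embryonic stem (ES) cells, and low-passage primary CD1 MEFs in DMEM with serum. All iPS and ES cells grew with LIF on arrested feeder cells, and the 3 iPS lines were held under puromycin at 1 μg/mL. The labels do not list feeders, LIF or puromycin for the MEFs, so culture and cell state cannot be told apart in any comparison with MEFs. The same holds for every comparison of 2i-converted cells, since only they had the inhibitors. It also holds for iPS lines against J1 cells, since no puromycin is listed for J1 cells. Nothing in the labels says that replicate arrays came from separate cultures, so the p-values cover the spread from array to array, which could be technical alone.

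A cell about to copy its DNA first loads the MCM helicase onto origins with the help of Cdc6 and Cdt1, and activates it only when S phase kinases fire. E2F transcription factors, held back by Rb-family proteins until G1 cyclin kinases phosphorylate those proteins, drive many of the replication genes, while B-Myb and FoxM1 act with other factors on genes needed in mitosis. Mouse ES cells are known for a short G1 phase and high cyclin E-Cdk2 activity, and the MEK inhibitor of 2i blocks the pathway through which growth factors induce cyclin D1 in many cell types.

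All values are log2 array values as deposited, differences are differences of log2 means with the standard error (SE) of the difference, and SD is the spread over 3 arrays. Probe sets differ in their response, so levels are compared between groups and never between genes. The 48 members averaged from 4.55 to 9.80 over the arrays. A gene was called when its p-value, adjusted over all 19937 genes, was under 0.05 in a limma fit to all arrays. A call is said to be lost where the adjusted p passed 0.05 under another processing, and the adjusted p is then given in brackets. Losses under centring on housekeeping genes are given as counts. Array medians ran from 3.92 to 4.11 and arrays of a group correlated at 0.97 to 0.992. The mean of 10 pluripotency markers ran from 8.89 to 9.12 in 2i-converted cells, 4.99 to 5.67 in partial cells and 8.22 to 8.65 in EOS3F-28. It ran from 8.17 to 8.72 in EOS3F-29, 8.77 to 9.07 in J1 cells and 3.36 to 3.63 in MEFs. That mean fitted the labels, but Pou5f1, 1 of the 10, went the other way in partial cells. There Pou5f1 stood at 10.61, 11.02 and 11.24, above every other array.

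Some arrays stood apart before any comparison. MEF replicate 3 was the lowest MEF array for 41 of the 48 members, against 33.4% of all genes. MEF replicate 2 was the highest for 39, against 38.3% of all genes. Among the 3930 genes with a mean of at least 6 these shares were larger, at 47.2% and 65.1%. The median member SD was 0.446 in MEFs, where the median over all genes was 0.14. In each of the 5 feeder-grown groups replicate 1 had the highest mean over 14 fibroblast and feeder markers, which ran from 5.97 to 7.33 in 2i-converted cells, 6.48 to 7.90 in partial cells, 6.19 to 7.52 in EOS3F-28, 6.51 to 8.24 in EOS3F-29, 6.11 to 7.31 in J1 cells and 8.72 to 9.01 in MEFs. Limma called 0 of these 14 markers in each comparison between 2i-converted, partial, full iPS and J1 cells, with 0 to 3 of them at an unadjusted p under 0.05. With such wide ranges within groups, the absence of calls does not show equal feeder content. The mean of 10 macrophage and endothelial markers stayed between 3.57 and 4.22 in all 18 arrays, and was highest in MEF replicate 3. Against MEFs, 2 of these 10 were called higher and 3 lower in full iPS lines (17.1% and 17.8% of all genes). In partial cells 0 were called higher and 3 lower (13.7% and 10% of all genes), so the mean does not show that each marker was level.

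**Figure D1:**
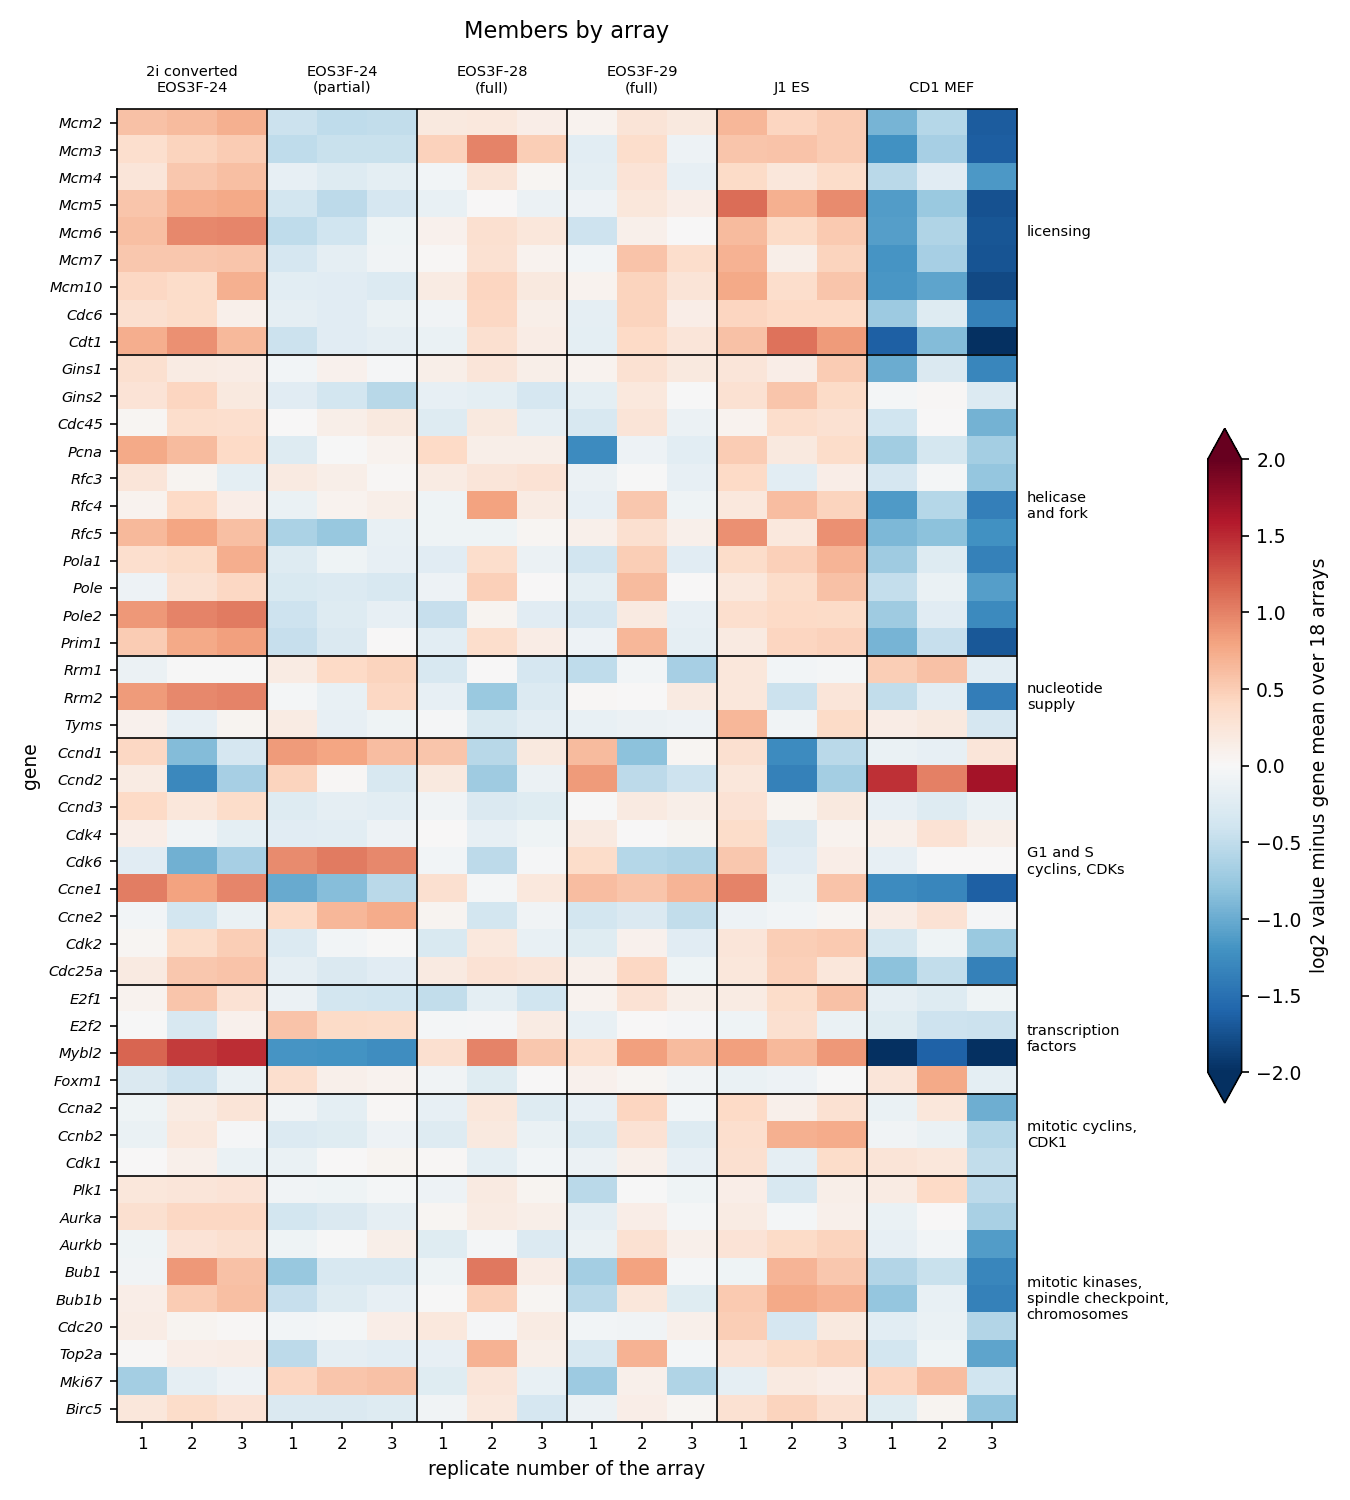
Heat map of the 48 measured members (rows, grouped by role) over the 18 arrays (columns, grouped by cell type), with colour giving the log2 value minus the gene's mean over all arrays, from -2 to 2. Licensing and fork genes are high in 2i-converted and J1 arrays and low in MEF arrays, with MEF replicate 3 the lowest for 41 of 48 members.

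Over the whole list, 2i conversion went with higher values. Of 48 members 22 were called higher and 4 lower in 2i-converted than in partial cells, where 9.36% of all genes were called higher and 13% lower, and the median member difference was 0.52 beside 0.001 over all genes. Against J1 cells, the same 2i-converted cells had 0 members called by limma, with 7 of 48 at an unadjusted p under 0.05 and 1.72% of all genes called. With the replicate number as a block, 3 members were called there. Partial cells fell below J1 cells in 21 members and exceeded them in 4, where 9.65% and 13.3% of all genes were called. They fell below the full iPS lines in 6 members and exceeded them in 5, where 5.78% and 12.8% of all genes were called. Leaving out partial replicate 2 gave 16 calls against J1 cells in place of 25.

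Differences from MEFs were mostly upward. Members called higher and lower numbered 31 and 2 in 2i-converted cells (19.6% and 17.9% of all genes), 19 and 1 in partial cells (13.7% and 10%), 24 and 3 in full iPS lines (17.1% and 17.8%), and 35 and 1 in J1 cells (20.6% and 17.5%). The 20 calls of partial cells against MEFs leaned on single arrays. Leaving out MEF replicate 3 gave 9 calls and leaving out partial replicate 3 gave 11. Fewer members were called between the full iPS lines and the other pluripotent cells: 9 were higher and 0 lower in 2i-converted than in full iPS cells (3.96% and 1.2% of all genes), and 0 were higher and 6 lower in full iPS than in J1 cells (1.29% and 3.47%). Without 2i-converted replicate 2 or 3 the 9 became 3 or 2, and without EOS3F-28 replicate 1, J1 replicate 2 or J1 replicate 3 the 6 became 3, 3 or 2. EOS3F-28 and EOS3F-29 had 0 members called apart by limma, 5 at an unadjusted p under 0.05 and 0.532% of all genes called. Comparisons with a common group share its arrays and are not independent of each other.

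The scale on which arrays were aligned mattered for these counts. Centring each array on 8 housekeeping genes shifted the median of all genes by up to 0.66 and moved whole comparisons: higher and lower members became 13 and 7 in 2i-converted against partial cells, 2 and 24 in 2i-converted against full iPS cells, 0 and 36 in 2i-converted against J1 cells, and 18 and 13 in 2i-converted cells against MEFs. They became 2 and 32 in partial against full iPS cells, 0 and 37 in partial against J1 cells, and 6 and 13 in partial cells against MEFs. Under that centring the median of all genes was -0.22, -0.59, -0.63 and -0.66 in the first 4 of these comparisons and -0.36, -0.41 and -0.43 in the last 3. A centring shifts all genes of an array alike, so a member's distance from the median of all genes is the same with or without it. The housekeeping centring used the median level of the 8 genes in each array. Centring on the median of their deviations from gene means (housekeeping deviations) shifted the median of all genes less in each of these comparisons. It was then -0.014 in 2i-converted cells against MEFs, -0.012 against full iPS cells and -0.112 against partial cells. In partial against full iPS cells it was 0.111. Cyclic loess gave 4 higher and 13 lower in partial against full iPS cells and 14 and 3 in partial cells against MEFs. No share of all genes called under these settings is given here, so the counts are not read as results about the members.

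The order of the 6 group means showed where partial cells stood. For 25 of 48 members the partial mean lay above MEFs and below the other 4 groups, an order held by 13% of all genes and 15.6% of the 3930 genes with a mean of at least 6. All 9 licensing genes had it, as did 16 of the 23 replication genes, 3 of the 13 cyclin/CDK genes and 6 of the 12 mitotic genes. The partial mean was the highest of the 6 for 6 members, Rrm1, Ccnd1, Cdk6, Ccne2, E2f2 and Mki67, a share of 12.5% beside 18.1% of all genes. MEFs had the lowest mean for 33 members (68.8%, against 34.1% of all genes).

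**Figure D2:**
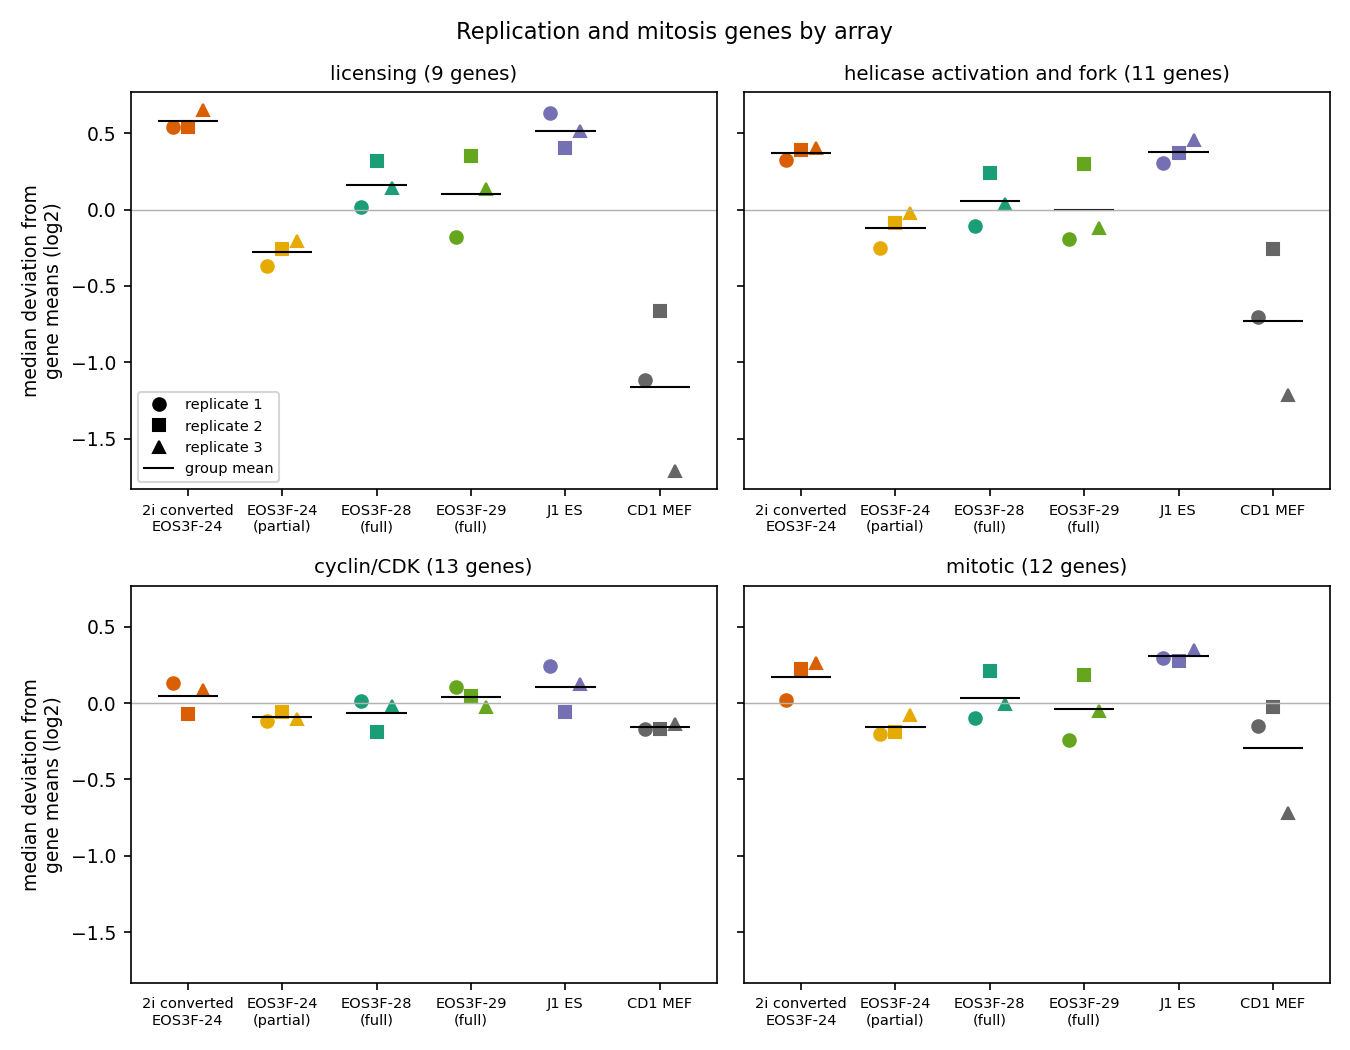
Median deviation of each class from its genes' means (log2, vertical axis) in each of the 18 arrays by group, in panels for licensing (9 genes), helicase activation and fork (11), cyclin/CDK (13) and mitotic genes (12), with marker shape giving the replicate and a line the group mean. Licensing arrays run from 0.54 to 0.65 in 2i-converted cells, -0.37 to -0.20 in partial cells and 0.40 to 0.64 in J1 cells, without overlap between partial cells and either of these.

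Licensing genes were higher together after 2i conversion. In 2i-converted against partial cells 8 of 9 were called higher and 0 lower (9.36% and 13% of all genes). For all 9 the lowest 2i-converted array lay above the highest partial array, an arrangement seen in 17.6% of all genes in that direction. The median licensing difference was 0.90. Bulk arrays cannot separate fewer cells in a phase from less RNA per cell. Mcm2, Mcm3, Mcm5, Mcm6, Mcm10 and Cdt1 stayed called under every alternative.

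Mcm5, a subunit of the helicase ring, stood at 8.16, 8.33 and 8.35 in 2i-converted cells, 7.23, 7.08 and 7.26 in partial cells, 7.45, 7.61 and 7.49 in EOS3F-28, 7.50, 7.83 and 7.73 in EOS3F-29, 8.72, 8.31 and 8.55 in J1 cells and 6.48, 6.86 and 5.85 in MEFs. The 2i-converted arrays lay above all partial and full iPS arrays, and overlapped the J1 arrays. The difference from partial cells was 1.09 ± 0.18 (adjusted p = 0.00024), and partial cells lay below J1 cells with a difference of -1.33 ± 0.18 (adjusted p = 3.01e-05). Mcm5 also fell in the full iPS lines relative to J1 cells, with a difference of -0.93 ± 0.16 (adjusted p = 0.00201). Mcm2, another ring subunit, stood at 8.62, 8.65 and 8.74 in 2i-converted cells, 7.60, 7.52 and 7.53 in partial cells, 8.22, 8.23 and 8.16 in EOS3F-28, 8.09, 8.28 and 8.21 in EOS3F-29, 8.68, 8.45 and 8.52 in J1 cells and 7.10, 7.45 and 6.36 in MEFs. Its 2i-converted arrays were above the partial arrays by 1.12 ± 0.18 (adjusted p = 0.000151), and partial cells fell below the full iPS lines with a difference of -0.65 ± 0.15 (adjusted p = 0.00552), with no overlap in either case.

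Cdt1 brings the helicase to the origin. Its values were 8.40, 8.59 and 8.33 in 2i-converted cells, 7.25, 7.45 and 7.50 in partial cells, 7.54, 7.995 and 7.82 in EOS3F-28, 7.48, 8.08 and 7.92 in EOS3F-29, 8.27, 8.76 and 8.52 in J1 cells and 6.04, 6.80 and 5.42 in MEFs. MEFs were lowest in every array and spread over more than a log2 unit. The difference from MEFs was 2.35 ± 0.25 (adjusted p = 1.08e-06) in 2i-converted cells, 1.32 ± 0.25 (adjusted p = 0.000697) in partial cells, 1.72 ± 0.21 (adjusted p = 6.89e-06) in full iPS lines and 2.43 ± 0.25 (adjusted p = 7.13e-07) in J1 cells. Mcm10, which joins the helicase at activation, differed between 2i-converted and partial cells by 0.73 ± 0.17 (adjusted p = 0.00373) and between partial cells and MEFs by 1.11 ± 0.17 (adjusted p = 9.3e-05).

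Mcm6, a ring subunit, stood at 8.72, 9.08 and 9.09 in 2i-converted cells, 7.61, 7.72 and 8.03 in partial cells, 8.20, 8.44 and 8.34 in EOS3F-28, 7.71, 8.23 and 8.12 in EOS3F-29, 8.75, 8.50 and 8.65 in J1 cells and 7.01, 7.52 and 6.41 in MEFs. It had the highest mean of the 6 groups in 2i-converted cells, which exceeded partial cells by 1.17 ± 0.21 (adjusted p = 0.000478). Its excess over the full iPS lines was 0.79 ± 0.18 (adjusted p = 0.0156), a call lost without 2i-converted replicate 2 (0.108) or 2i-converted replicate 3 (0.11) and with only EOS3F-28 as full cells (0.0954). Mcm4 and Mcm7, also ring subunits, rose in 2i-converted against partial cells by 0.67 ± 0.18 (adjusted p = 0.0114) and 0.74 ± 0.21 (adjusted p = 0.0161). The Mcm4 call was lost without 2i-converted replicate 3 (0.0554), and the Mcm7 call without partial replicate 1 (0.064) and without the number 1 arrays of the feeder-grown groups (0.0608). Cdc6, which loads the helicase together with Cdt1, was not called, at 0.43 ± 0.21 (adjusted p = 0.155).

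Mcm3, a ring subunit, was lower in partial cells than in the full iPS lines with a difference of -0.80 ± 0.17 (adjusted p = 0.00238), a call lost with only EOS3F-29 as full cells (0.114). It differed from J1 cells by -1.02 ± 0.20 (adjusted p = 0.000845). In full iPS lines and in J1 cells against MEFs all 9 licensing genes were called higher under every alternative, with median differences of 1.23 and 1.66. Of all genes 17.1% and 20.6% were called higher there in the fit to all arrays. In 2i-converted cells against MEFs all 9 licensing genes were called higher (19.6% of all genes), with a median of 1.73. In partial cells against MEFs 8 of 9 were (13.7% of all genes), with a median of 0.79. Of these 8, 3 stayed called under every alternative, Mcm7, Mcm10 and Cdt1. Against J1 cells the 2i-converted licensing differences ran from -0.25 to 0.33.

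The upstream sequences of 3 licensing genes are given because their promoters hold the letters of the E2F element. They are RefSeq windows on GRCm38.p6, the 250 bases before the annotated start, written 5′ to 3′ on the gene's strand, with E2F matches in capitals. Mcm5 lies at chr8:75109259-75109508 on the plus strand, Mcm6 at chr1:128359706-128359955 on the minus strand and Cdc6 at chr11:98907901-98908150 on the plus strand. In Mcm5 and Mcm6 the capitals include overlapping matches on opposite strands.
Mcm5: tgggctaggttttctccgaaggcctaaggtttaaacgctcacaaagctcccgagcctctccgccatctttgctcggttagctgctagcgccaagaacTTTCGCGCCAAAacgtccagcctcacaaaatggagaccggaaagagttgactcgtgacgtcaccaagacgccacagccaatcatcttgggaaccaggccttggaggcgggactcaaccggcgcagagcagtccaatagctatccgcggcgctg
Mcm6: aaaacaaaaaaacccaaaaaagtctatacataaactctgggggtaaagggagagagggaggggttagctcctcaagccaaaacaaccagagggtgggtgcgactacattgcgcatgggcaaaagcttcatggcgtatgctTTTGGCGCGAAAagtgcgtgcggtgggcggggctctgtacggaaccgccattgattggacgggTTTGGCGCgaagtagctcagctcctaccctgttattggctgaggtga
Cdc6: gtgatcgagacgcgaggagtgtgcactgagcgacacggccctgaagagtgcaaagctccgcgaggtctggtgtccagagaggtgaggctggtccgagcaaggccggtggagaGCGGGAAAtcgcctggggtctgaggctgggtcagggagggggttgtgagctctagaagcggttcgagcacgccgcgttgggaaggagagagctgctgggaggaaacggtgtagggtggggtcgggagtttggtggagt

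The letters searched were TTTCCCGC, TTTGGCGC, TTTCGCGC and TTTGCCGC on both strands, over each window of 300 bases (250 before the start and 50 after). Windows were given for 39 of the 49 listed genes, Ccnb1 among them. A match was present in 9 of 19 replication genes (47.4%), 3 of 9 cyclin/CDK genes (33.3%) and 1 of 11 mitotic genes (9.1%). Among all 27025 genes with a window the share was 2.6%, and among 3234 measured genes with a mean of at least 6 it was 5.94%. The replication genes with a match were Mcm3, Mcm5, Mcm6, Mcm7, Cdc6, Cdt1, Rfc3, Pola1 and Pole2. Their median difference was 0.90 in 2i-converted against partial cells, beside 0.70 for the 10 replication genes without a match. In that comparison 6 genes of each set were called higher, as were 9.36% of all genes. A match of letters is not evidence of binding, and its absence says only that these letters are not in the window.

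Some helicase activation and fork genes were also higher after 2i conversion. In 2i-converted against partial cells 5 of 11 were called higher and 0 lower (9.36% and 13% of all genes), with a median of 0.65. In partial against J1 cells 4 of 11 were called lower and 0 higher (9.65% and 13.3% of all genes), with a median of -0.60. Pole2, the second subunit of the leading-strand polymerase epsilon, stood at 6.41, 6.53 and 6.57 in 2i-converted cells, 5.12, 5.28 and 5.37 in partial cells, 5.07, 5.59 and 5.32 in EOS3F-28, 5.20, 5.72 and 5.38 in EOS3F-29, 5.88, 5.93 and 5.91 in J1 cells and 4.83, 5.31 and 4.26 in MEFs. Its 2i-converted arrays exceeded every other array of the series. The differences were 1.25 ± 0.20 (adjusted p = 0.000147) from partial cells and 1.12 ± 0.17 (adjusted p = 0.000902) from the full iPS lines, both called under every alternative. From J1 cells it was 0.59 ± 0.20 (adjusted p = 0.179), with no overlap between arrays and a 95% interval of 0.18 to 1.01.

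Rfc5, a subunit of the clamp loader that places PCNA on DNA, stood at 7.71, 7.84 and 7.67 in 2i-converted cells, 6.43, 6.30 and 6.91 in partial cells, 6.98, 6.98 and 7.10 in EOS3F-28, 7.16, 7.38 and 7.16 in EOS3F-29, 7.97, 7.28 and 7.98 in J1 cells and 6.16, 6.25 and 5.85 in MEFs. Partial arrays were below all 2i-converted, EOS3F-28, EOS3F-29 and J1 arrays. The 2i-converted cells exceeded partial cells by 1.20 ± 0.18 (adjusted p = 7.72e-05) and partial cells fell below J1 cells with a difference of -1.20 ± 0.18 (adjusted p = 7.49e-05). The difference between partial cells and full iPS lines, -0.58 ± 0.15 (adjusted p = 0.0116), was lost without partial replicate 1 (0.0608) or partial replicate 2 (0.103) and with only EOS3F-28 as full cells (0.0836) or without the number 1 arrays of the feeder-grown groups (0.0599). Of the other clamp loader subunits on the list, neither was called: between 2i-converted and partial cells Rfc3 differed by -0.07 ± 0.17 (adjusted p = 0.843) and Rfc4 by 0.19 ± 0.23 (adjusted p = 0.661). Whether Rfc5 differed from Rfc3 and Rfc4 in this respect was not tested.

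Gins2, part of the active helicase, was higher in 2i-converted than in partial cells by 0.69 ± 0.12 (adjusted p = 0.000559) and lower in partial than in J1 cells with a difference of -0.80 ± 0.12 (adjusted p = 0.000122), both under every alternative. Gins1, of the same complex, had a difference of 0.21 ± 0.18 (adjusted p = 0.49) between 2i-converted and partial cells. Prim1, the primase that starts each new strand, rose in 2i-converted against partial cells by 0.94 ± 0.26 (adjusted p = 0.0131), a call lost without partial replicate 1 (0.0589) or 2i-converted replicate 3 (0.0528). Cdc45, the third part of the active helicase, was not called there, at 0.14 ± 0.20 (adjusted p = 0.707).

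Pcna, the sliding clamp, gave different answers from its 2 probe sets. The brighter one put 2i-converted cells above partial cells by 0.66 and above the full iPS lines by 0.76, and the other by 0.27 and 0.14. On the brighter probe set the call against partial cells, 0.66 ± 0.22 (adjusted p = 0.0367), was lost without partial replicate 1 (0.133), partial replicate 2 (0.075), partial replicate 3 (0.0516), 2i-converted replicate 1 (0.111) or 2i-converted replicate 2 (0.0996) and after cyclic loess (0.159) or after centring on housekeeping deviations (0.0679). EOS3F-28 differed from EOS3F-29 by 0.73 ± 0.22 (adjusted p = 0.18) on the brighter probe set and by 0.16 on the other.

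Nucleotide supply split by subunit. Rrm2, the regulated subunit of ribonucleotide reductase, stood at 9.69, 9.80 and 9.82 in 2i-converted cells, 8.80, 8.68 and 9.24 in partial cells, 8.67, 8.09 and 8.56 in EOS3F-28, 8.86, 8.84 and 9.02 in EOS3F-29, 9.07, 8.40 and 9.07 in J1 cells and 8.33, 8.62 and 7.45 in MEFs. The 2i-converted arrays were the highest of the series. The difference from the full iPS lines was 1.09 ± 0.21 (adjusted p = 0.00533), lost with only EOS3F-29 as full cells (0.0763), and that from partial cells was 0.86 ± 0.24 (adjusted p = 0.0161), lost without partial replicate 1 (0.0565), partial replicate 2 (0.0788), 2i-converted replicate 2 (0.0517) or 2i-converted replicate 3 (0.0535) and without the number 1 arrays of the feeder-grown groups (0.0666). From J1 cells it was 0.92 ± 0.24 (adjusted p = 0.0693), and 0.0442 was the adjusted p with the replicate number as a block.

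Rrm1, the large subunit of the same enzyme, stood at 8.51, 8.62 and 8.61 in 2i-converted cells, 8.79, 9.03 and 9.07 in partial cells, 8.30, 8.63 and 8.28 in EOS3F-28, 8.12, 8.56 and 7.96 in EOS3F-29, 8.85, 8.56 and 8.58 in J1 cells and 9.12, 9.21 and 8.41 in MEFs. Partial arrays lay above all full iPS arrays, by 0.66 ± 0.16 (adjusted p = 0.00715), a call lost with only EOS3F-28 as full cells (0.0524). Between 2i-converted and partial cells Rrm1 differed by -0.38 ± 0.18 (adjusted p = 0.165), with no overlap but without a call. Tyms, which makes thymidylate, was not called in any of the 11 comparisons, and its group means ran from 6.09 in EOS3F-28 to 6.60 in J1 cells.

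**Figure D3:**
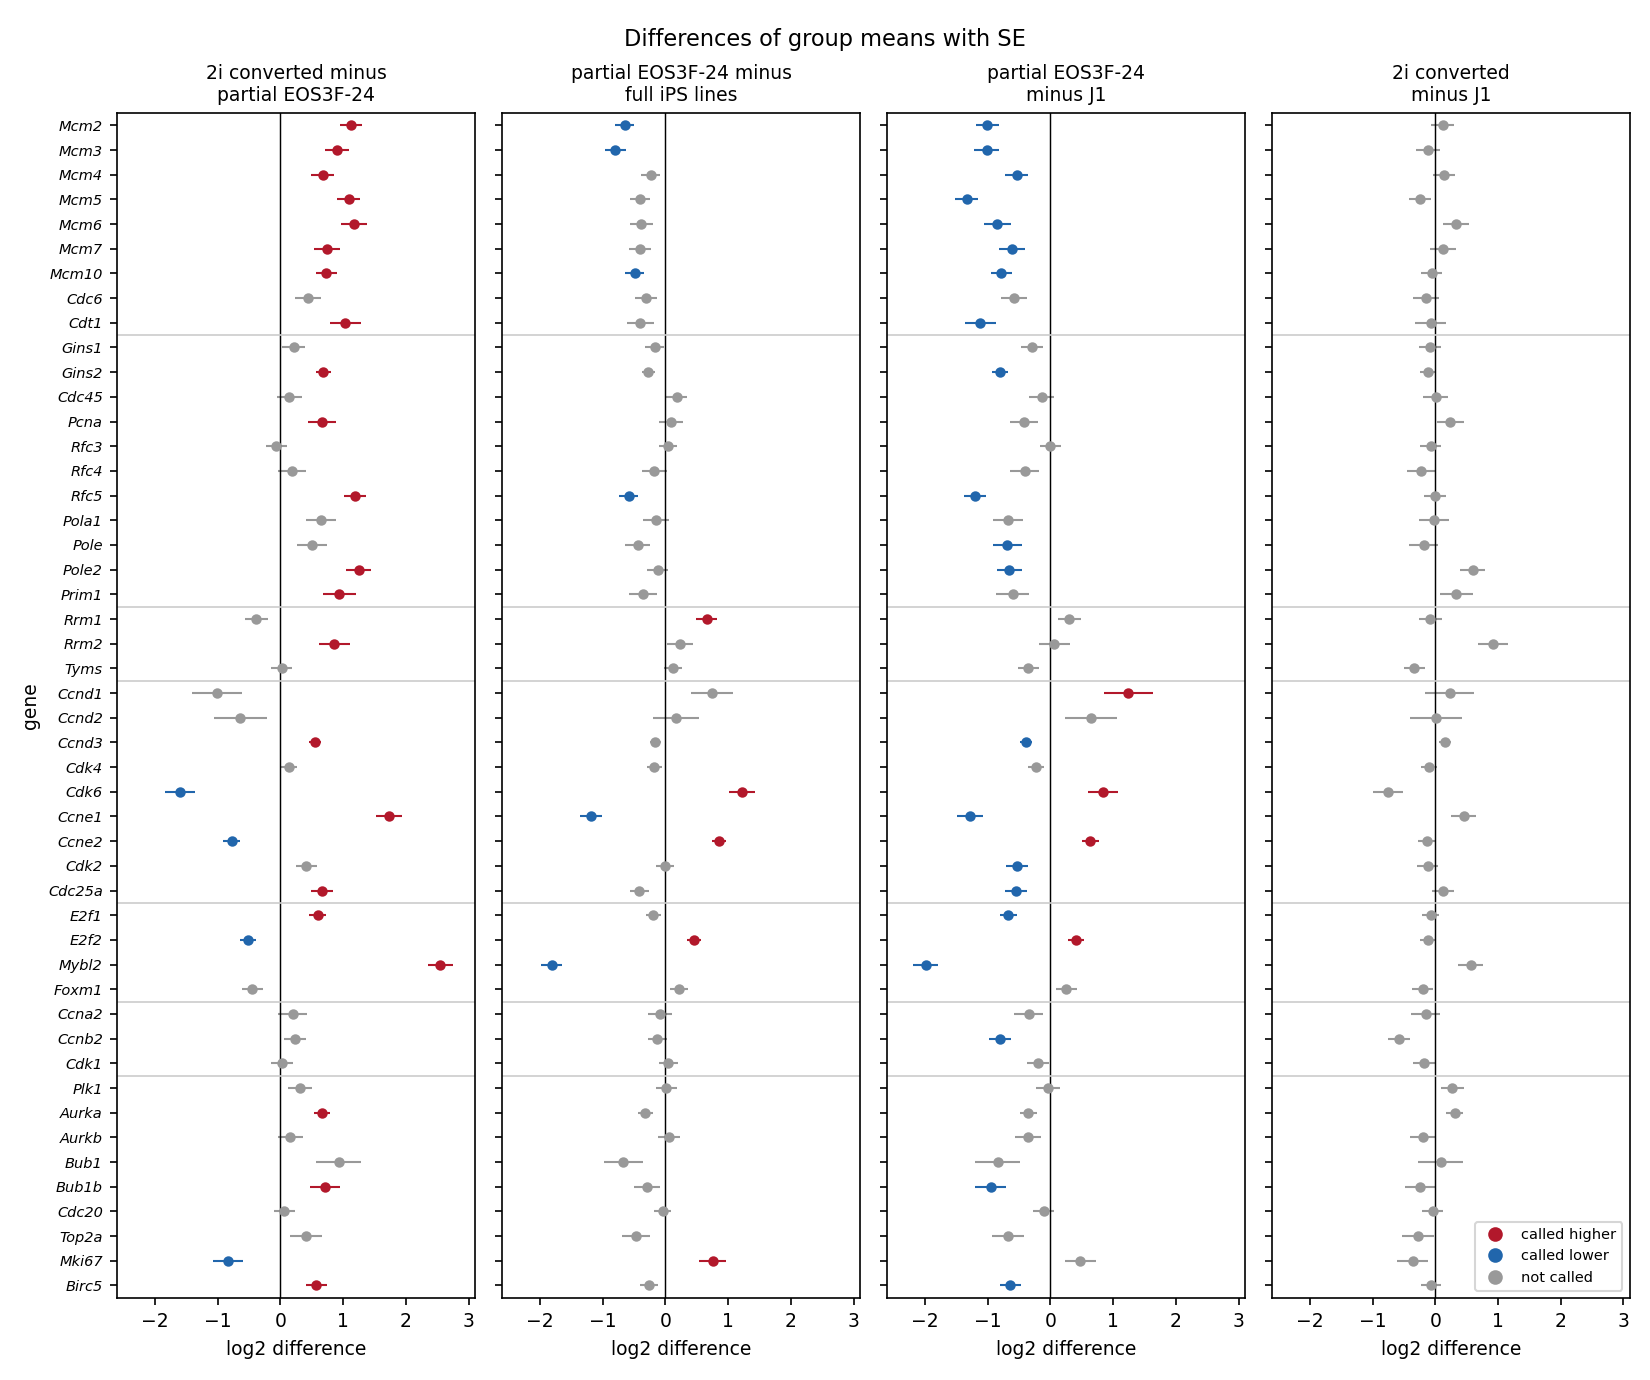
Difference of log2 means (horizontal axis, ± SE) for the 48 members (vertical axis, by role) in 2i-converted against partial, partial against full iPS, partial against J1 and 2i-converted against J1 cells, with red for called higher, blue for called lower and grey for not called. Mybl2 (2.55) and Ccne1 (1.73) lead the first panel and Cdk6 (-1.60) closes it, and the last panel has no called member.

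The genes of cyclins and their kinases did not all move the same way. Ccne1, cyclin E1, which activates Cdk2 at the start of S phase, stood at 8.98, 8.76 and 8.95 in 2i-converted cells, 6.96, 7.11 and 7.43 in partial cells, 8.28, 7.93 and 8.18 in EOS3F-28, 8.59, 8.52 and 8.64 in EOS3F-29, 8.97, 7.84 and 8.54 in J1 cells and 6.70, 6.67 and 6.34 in MEFs. Partial arrays lay between MEFs and the rest, with no array of theirs reaching the lowest of the 2i-converted, full iPS or J1 arrays. The difference was 1.73 ± 0.20 (adjusted p = 7.15e-06) in 2i-converted against partial cells, -1.19 ± 0.18 (adjusted p = 0.000102) in partial against full iPS cells and -1.28 ± 0.20 (adjusted p = 0.000161) in partial against J1 cells. All 3 were called under every alternative. Against MEFs Ccne1 was higher by 2.33 ± 0.20 (adjusted p = 1.48e-07) in 2i-converted cells, 1.79 ± 0.18 (adjusted p = 5.47e-07) in full iPS lines and 1.88 ± 0.20 (adjusted p = 1.53e-06) in J1 cells.

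Ccne2, cyclin E2, the other E-type cyclin, did the reverse. It stood at 4.65, 4.33 and 4.57 in 2i-converted cells, 5.09, 5.37 and 5.43 in partial cells, 4.75, 4.32 and 4.63 in EOS3F-28, 4.33, 4.40 and 4.20 in EOS3F-29, 4.59, 4.63 and 4.74 in J1 cells and 4.85, 4.98 and 4.67 in MEFs. Partial arrays were the highest of the series and overlapped no other group. The difference was -0.78 ± 0.13 (adjusted p = 0.000225) in 2i-converted against partial cells, 0.86 ± 0.11 (adjusted p = 2.53e-05) in partial against full iPS cells and 0.64 ± 0.13 (adjusted p = 0.0013) in partial against J1 cells. Its mean of 4.70 over all arrays is close to the array medians.

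Cdk6, a kinase partner of D-type cyclins, stood at 6.05, 5.31 and 5.61 in 2i-converted cells, 7.21, 7.31 and 7.24 in partial cells, 6.21, 5.75 and 6.25 in EOS3F-28, 6.63, 5.71 and 5.67 in EOS3F-29, 6.81, 6.05 and 6.39 in J1 cells and 6.10, 6.27 and 6.28 in MEFs. Partial arrays again exceeded every other array. The 2i-converted cells were lower than partial cells with a difference of -1.60 ± 0.24 (adjusted p = 8.32e-05), the largest fall of any member in that comparison. Partial cells were higher than the full iPS lines by 1.22 ± 0.21 (adjusted p = 0.000369) and higher than MEFs by 1.04 ± 0.24 (adjusted p = 0.0036). Against J1 cells the difference was 0.84 ± 0.24 (adjusted p = 0.0159), lost without J1 replicate 2 (0.0924) or partial replicate 2 (0.0552). Between 2i-converted and J1 cells it was -0.76 ± 0.24 (adjusted p = 0.144), with an adjusted p of 0.0355 when the replicate number was a block. Cdk4, the other partner of D-type cyclins, was not called in any of the 11 comparisons, and its group means ran from 9.56 in partial cells to 9.91 in MEFs.

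The D-type cyclins carry growth factor signals into the cycle. Ccnd1 stood at 8.83, 7.53 and 8.07 in 2i-converted cells, 9.26, 9.19 and 9.02 in partial cells, 8.95, 7.86 and 8.60 in EOS3F-28, 9.04, 7.59 and 8.45 in EOS3F-29, 8.72, 7.15 and 7.87 in J1 cells and 8.27, 8.23 and 8.65 in MEFs. Apart from partial cells and MEFs, arrays of a group differed by more than 1 log2 unit, with replicate 1 the highest and replicate 2 the lowest. The 2i-converted cells differed from partial cells by -1.01 ± 0.40 (adjusted p = 0.0772), with an adjusted p of 0.00352 when the replicate number was a block. Partial cells exceeded J1 cells by 1.25 ± 0.40 (adjusted p = 0.029), a call lost without J1 replicate 2 (0.169), J1 replicate 3 (0.0808), partial replicate 1 (0.0787), partial replicate 2 (0.0791) or partial replicate 3 (0.054) and in a trended robust fit (0.0565).

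Ccnd2 stood at 9.35, 7.90 and 8.52 in 2i-converted cells, 9.62, 9.21 and 8.85 in partial cells, 9.38, 8.47 and 9.06 in EOS3F-28, 10.03, 8.65 and 8.77 in EOS3F-29, 9.41, 7.83 and 8.50 in J1 cells and 10.63, 10.19 and 10.85 in MEFs. MEFs were above every other array. It was lower than in MEFs with a difference of -1.97 ± 0.42 (adjusted p = 0.00109) in 2i-converted cells, -1.50 ± 0.36 (adjusted p = 0.0034) in full iPS lines and -1.98 ± 0.42 (adjusted p = 0.00105) in J1 cells, and these 3 calls held under every alternative. Between 2i-converted and partial cells it differed by -0.64 ± 0.42 (adjusted p = 0.334), with an adjusted p of 0.0435 with the block. In all 5 feeder-grown groups Ccnd1 and Ccnd2 were highest in the array with the highest feeder marker level, an arrangement held by 5.11% of genes. The part of feeder RNA in the values of these 2 genes was not tested. Ccnd3 was higher in 2i-converted than in partial cells, by 0.54 ± 0.10 (adjusted p = 0.000415).

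**Figure D4:**
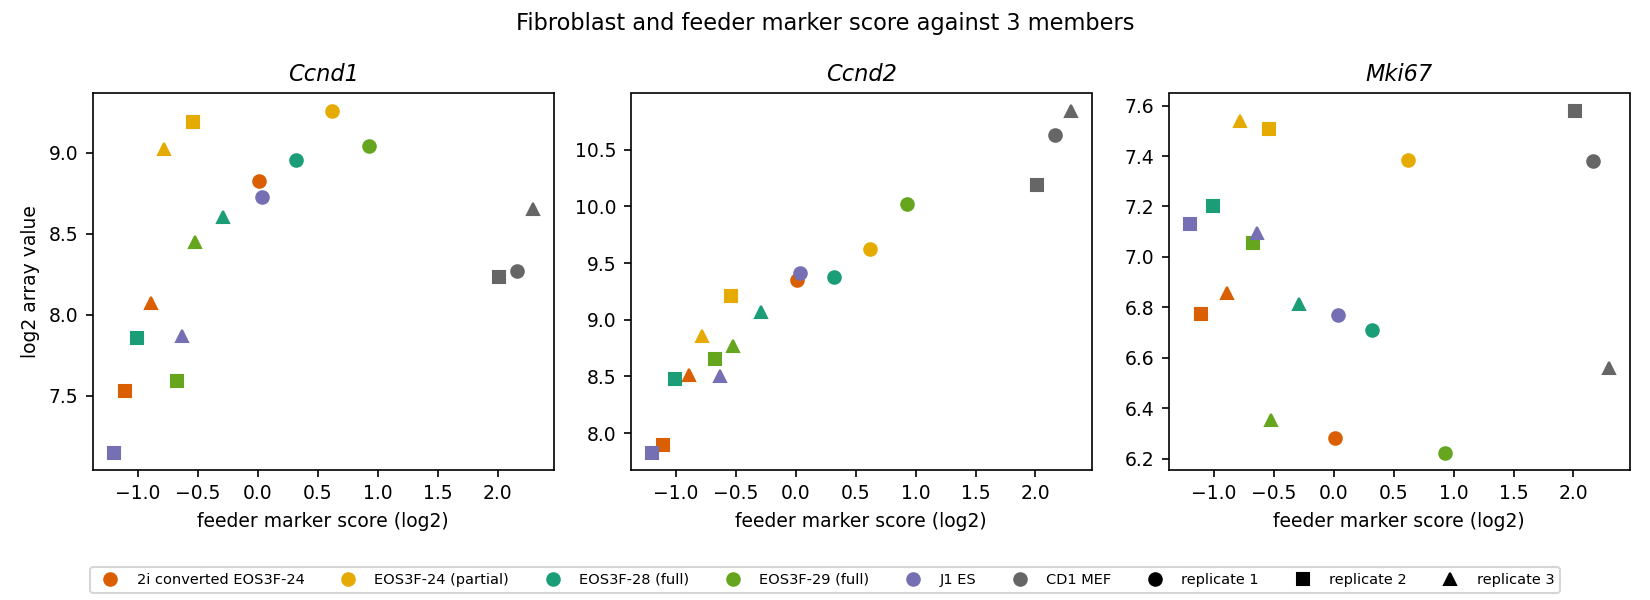
Log2 values of Ccnd1, Ccnd2 and Mki67 (vertical axes) against the feeder marker score (horizontal axis), 1 point per array, coloured by group. The score is the median deviation (log2) of 14 fibroblast and feeder markers from their gene means. Within the 5 feeder-grown groups Ccnd1 and Ccnd2 are highest, and Mki67 lowest, in the array with the most feeder marker signal.

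Cdc25a, the phosphatase that activates Cdk2, was higher in 2i-converted than in partial cells by 0.67 ± 0.17 (adjusted p = 0.0096) and higher in 2i-converted cells than in MEFs by 1.33 ± 0.17 (adjusted p = 1.16e-05). Cdk2, the partner of cyclin E, was not called between 2i-converted and partial cells, at 0.41 ± 0.17 (adjusted p = 0.0999), with an adjusted p of 0.0332 with the block. Partial cells were lower in Cdk2 than J1 cells with a difference of -0.54 ± 0.17 (adjusted p = 0.0296), a call lost without J1 replicate 2 (0.0917), J1 replicate 3 (0.108), partial replicate 1 (0.114) or partial replicate 2 (0.0616) and after centring on housekeeping deviations (0.0819).

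Among the transcription factors Mybl2 had the largest differences of the whole list. It encodes B-Myb, which activates G2 and mitotic genes. Its values were 8.72, 8.96 and 9.04 in 2i-converted cells, 6.39, 6.37 and 6.32 in partial cells, 7.89, 8.56 and 8.11 in EOS3F-28, 7.90, 8.38 and 8.19 in EOS3F-29, 8.38, 8.21 and 8.44 in J1 cells and 5.32, 5.95 and 5.005 in MEFs. The partial arrays lay close together, more than 1 log2 unit below all 2i-converted, full iPS and J1 arrays, and above all MEF arrays. Mybl2 was higher in 2i-converted than in partial cells by 2.55 ± 0.20 (adjusted p = 5.23e-08), a fold of 5.85. It was lower in partial cells than in full iPS lines with a difference of -1.81 ± 0.17 (adjusted p = 6.99e-07) and than in J1 cells with a difference of -1.99 ± 0.20 (adjusted p = 1.01e-06). Against MEFs the difference was 3.48 ± 0.20 (adjusted p = 8.36e-10) in 2i-converted cells, 0.93 ± 0.20 (adjusted p = 0.00199) in partial cells, 2.75 ± 0.17 (adjusted p = 2.47e-09) in full iPS lines and 2.92 ± 0.20 (adjusted p = 8.12e-09) in J1 cells. The first of these is a fold of 11.2.

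These calls of Mybl2 held under every alternative. The exception was 2i-converted against full iPS cells, where 0.73 ± 0.17 (adjusted p = 0.0173) was lost without 2i-converted replicate 2 (0.103) or 2i-converted replicate 3 (0.119) and with only EOS3F-29 as full cells (0.0568) or without the number 1 arrays of the feeder-grown groups (0.0629). Foxm1, the factor that works on mitotic genes beside B-Myb, was not called between 2i-converted and partial cells, which differed by -0.45 ± 0.17 (adjusted p = 0.0639), and its highest group mean was 5.38, in MEFs.

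E2f1 and E2f2, activating E2F factors, moved apart. E2f1 was higher in 2i-converted than in partial cells by 0.60 ± 0.14 (adjusted p = 0.0034) and lower in partial than in J1 cells with a difference of -0.67 ± 0.14 (adjusted p = 0.0013). E2f2 was highest in partial cells, at 4.99 ± 0.11 (SD, n = 3), against 4.18 ± 0.10 (SD, n = 3) in MEFs, a difference of 0.81 ± 0.13 (adjusted p = 0.000176). It was lower in 2i-converted than in partial cells with a difference of -0.52 ± 0.13 (adjusted p = 0.00691), a call lost without 2i-converted replicate 2 (0.0544). E2f2 had the lowest mean of the measured members, 4.55 over all arrays, which is close to the array medians.

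**Figure D5:**
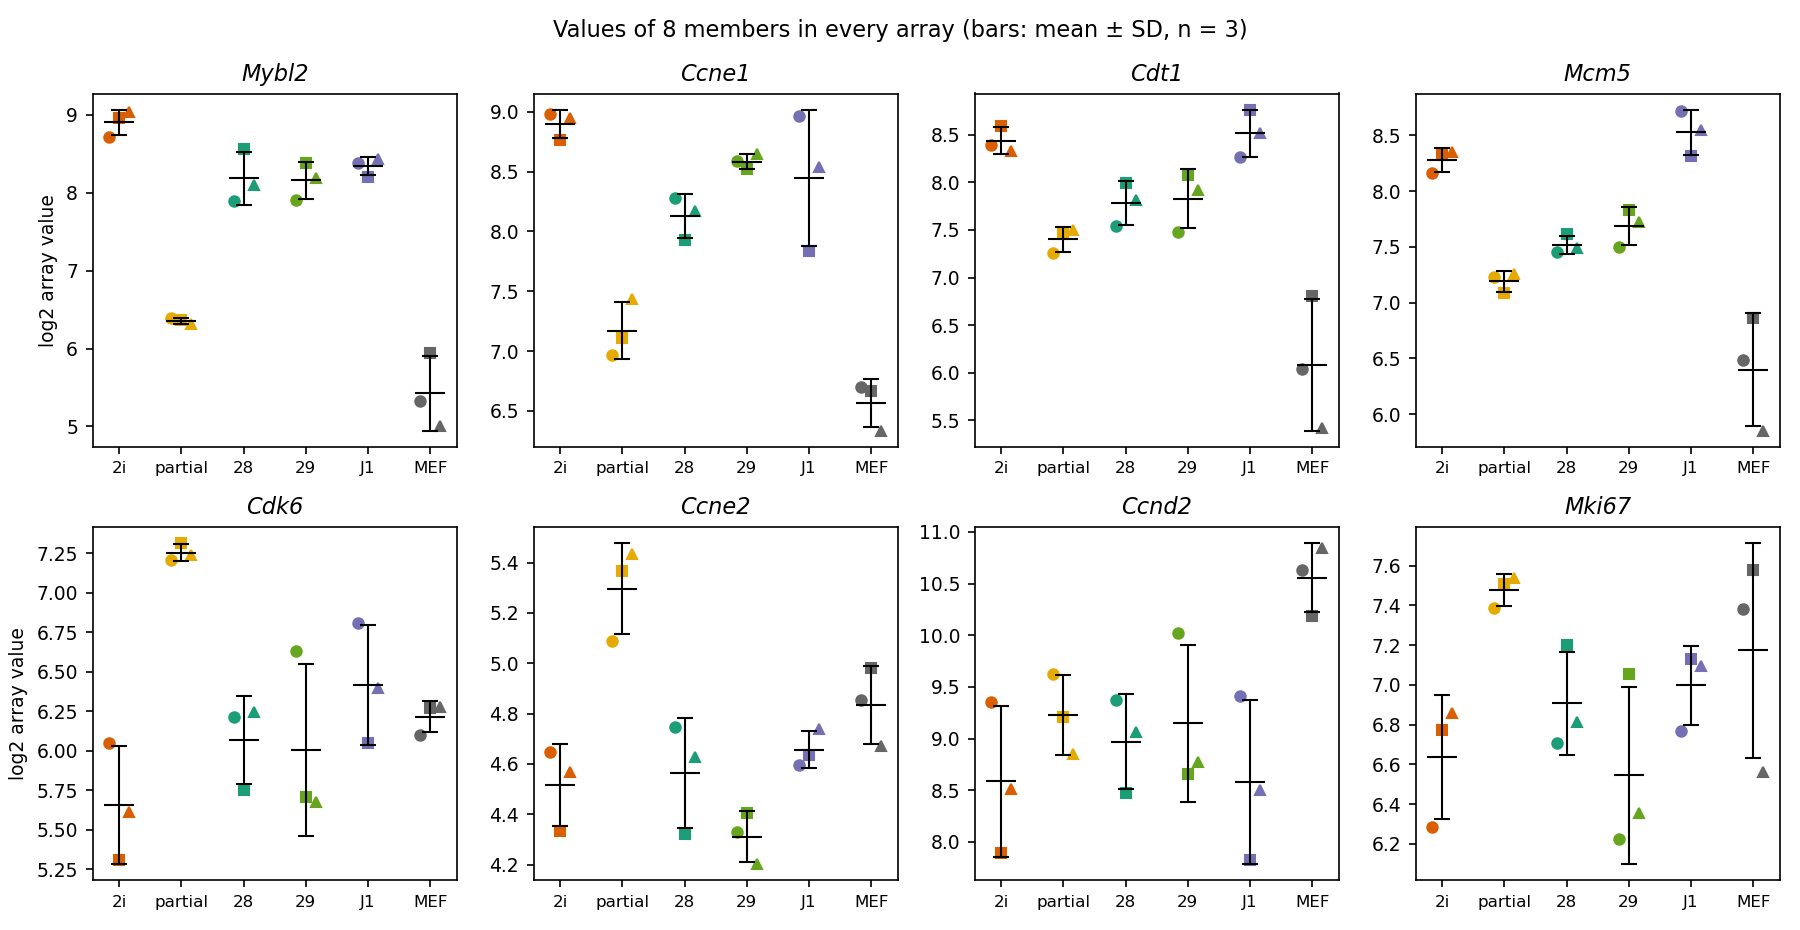
Log2 values of Mybl2, Ccne1, Cdt1, Mcm5, Cdk6, Ccne2, Ccnd2 and Mki67 in the 18 arrays by group, with circles, squares and triangles for replicates 1, 2 and 3 and bars for the mean ± SD of 3 arrays. Partial cells are the lowest feeder-grown group for Mybl2, Ccne1, Cdt1 and Mcm5 and the highest of all groups for Cdk6, Ccne2 and Mki67.

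Fewer mitotic than replication genes were called. In 2i-converted against partial cells 3 of 12 were called higher and 1 lower (9.36% and 13% of all genes), with a median of 0.27. In partial cells against MEFs 0 of 12 were called by limma, where 13.7% of all genes were called higher and 10% lower. There 1 of the 12 was at an unadjusted p under 0.05, and the median was 0.21. J1 cells had 7 of 12 higher than MEFs (20.6% of all genes), 2i-converted cells 5 (19.6%) and full iPS lines 3 (17.1%). Without MEF replicate 3 the full iPS calls were lost, Bub1 (0.136), Bub1b (0.102) and Top2a (0.22), and so were those of Bub1 (0.0876), Cdc20 (0.223) and Top2a (0.0768) in J1 cells and of Aurkb (0.164) and Bub1 (0.0621) in 2i-converted cells. Whether the replication and mitotic classes differed from each other was not tested.

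Among mitotic cyclins and their kinase, Ccnb2, cyclin B2, stood at 7.63, 7.98 and 7.74 in 2i-converted cells, 7.50, 7.52 and 7.65 in partial cells, 7.50, 7.96 and 7.62 in EOS3F-28, 7.45, 8.05 and 7.50 in EOS3F-29, 8.10, 8.48 and 8.50 in J1 cells and 7.70, 7.64 and 7.20 in MEFs. J1 arrays were above all other arrays. Ccnb2 was higher in J1 cells than in MEFs by 0.85 ± 0.17 (adjusted p = 0.000841) and lower in partial than in J1 cells with a difference of -0.80 ± 0.17 (adjusted p = 0.00251), both under every alternative. Full iPS lines were also below J1 cells, with a difference of -0.68 ± 0.15 (adjusted p = 0.0153), a call lost without J1 replicate 2 (0.0746) or J1 replicate 3 (0.119) and with only EOS3F-29 as full cells (0.0528) or in a fit to the compared arrays alone (0.0551). The 2i-converted cells differed from J1 cells by -0.57 ± 0.17 (adjusted p = 0.128), with an adjusted p of 0.0398 when the replicate number was a block. Cdk1, the kinase that cyclin B activates, had group means between 7.20 and 7.44, and Ccna2, cyclin A2, between 7.52 and 8.08. Neither gene was called in any of the 11 comparisons.

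Aurka, the Aurora A kinase of centrosomes and spindles, stood at 7.64, 7.73 and 7.72 in 2i-converted cells, 6.95, 7.03 and 7.13 in partial cells, 7.36, 7.49 and 7.44 in EOS3F-28, 7.14, 7.44 and 7.27 in EOS3F-29, 7.47, 7.28 and 7.42 in J1 cells and 7.18, 7.33 and 6.67 in MEFs. It was higher in 2i-converted than in partial cells by 0.66 ± 0.14 (adjusted p = 0.00142), the mitotic call there that held under every alternative. Bub1b, a spindle checkpoint protein, stood at 7.62, 8.01 and 8.09 in 2i-converted cells, 7.02, 7.24 and 7.33 in partial cells, 7.48, 7.97 and 7.52 in EOS3F-28, 6.95, 7.72 and 7.25 in EOS3F-29, 8.01, 8.24 and 8.19 in J1 cells and 6.71, 7.34 and 6.13 in MEFs. Partial cells were below J1 cells with a difference of -0.95 ± 0.24 (adjusted p = 0.00736), without overlap. The 2i-converted cells exceeded partial cells by 0.71 ± 0.24 (adjusted p = 0.0421), a call lost without partial replicate 1 (0.138), partial replicate 2 (0.0895), partial replicate 3 (0.0602), 2i-converted replicate 2 (0.128) or 2i-converted replicate 3 (0.149) and after centring on housekeeping deviations (0.0896) or without the number 1 arrays of the feeder-grown groups (0.0631).

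Bub1, the partner checkpoint kinase, differed between 2i-converted and partial cells by 0.93 ± 0.36 (adjusted p = 0.0742), with an adjusted p of 0.00387 when the replicate number was a block. Birc5, survivin, a subunit of the chromosomal passenger complex, was higher in 2i-converted than in partial cells by 0.57 ± 0.17 (adjusted p = 0.0184), lost without partial replicate 2 (0.0569) or 2i-converted replicate 2 (0.0712) and after centring on housekeeping deviations (0.0746) or without the number 1 arrays of the feeder-grown groups (0.0708), and lower in partial than in J1 cells with a difference of -0.64 ± 0.17 (adjusted p = 0.0089). Aurkb, the kinase of that complex, rose in J1 cells against MEFs by 0.81 ± 0.20 (adjusted p = 0.00416). Plk1, a mitotic kinase, had group means from 7.47 in EOS3F-29 to 7.93 in 2i-converted cells and was not called in any of the 11 comparisons.

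Of the 23 replication genes only 1, Rrm1, had its highest group mean in partial cells. So did Mki67, the gene of the proliferation marker Ki-67. It stood at 6.28, 6.77 and 6.86 in 2i-converted cells, 7.38, 7.51 and 7.54 in partial cells, 6.71, 7.20 and 6.81 in EOS3F-28, 6.22, 7.05 and 6.35 in EOS3F-29, 6.77, 7.13 and 7.09 in J1 cells and 7.38, 7.58 and 6.56 in MEFs. Partial arrays were above all 2i-converted, full iPS and J1 arrays, and overlapped the MEF arrays. The 2i-converted cells were lower than partial cells with a difference of -0.84 ± 0.24 (adjusted p = 0.0176), lost without partial replicate 2 (0.056), partial replicate 3 (0.0533) or 2i-converted replicate 1 (0.0832) and without the number 1 arrays of the feeder-grown groups (0.0802), and partial cells were higher than full iPS lines by 0.75 ± 0.21 (adjusted p = 0.0173), lost without partial replicate 2 (0.0702) or partial replicate 3 (0.0698) and after cyclic loess (0.0526), with only EOS3F-28 as full cells (0.137) or without the number 1 arrays of the feeder-grown groups (0.0592). Mki67 was among 10 members that were lowest in the array with the most feeder marker signal in all 5 feeder-grown groups, an arrangement held by 3.58% of genes. The others were Cdc45, Rfc4, Pola1, Pole2, Cdk2, Ccnb2, Bub1, Bub1b and Top2a. The part of feeder RNA in these values was not tested.

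The upstream windows of Cdc20, Cdk1 and Top2a are shown because they hold the elements known from mitotic promoters, the cell cycle genes homology region (CHR, searched as TTTGAA) and the CCAAT box (CCAAT), on either strand. Cdc20 activates the anaphase-promoting complex and Top2a untangles sister chromatids. The 250 bases before the start, from RefSeq on GRCm38.p6 with matches in capitals, lie at chr4:118437344-118437593, chr10:69352913-69353162 and chr11:99024190-99024439, all on the minus strand.
Cdc20: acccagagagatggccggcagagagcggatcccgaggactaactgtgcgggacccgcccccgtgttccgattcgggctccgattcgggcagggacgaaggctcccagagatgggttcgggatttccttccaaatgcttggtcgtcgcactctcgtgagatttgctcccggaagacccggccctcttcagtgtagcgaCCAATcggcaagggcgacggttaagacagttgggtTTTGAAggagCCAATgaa
Cdk1: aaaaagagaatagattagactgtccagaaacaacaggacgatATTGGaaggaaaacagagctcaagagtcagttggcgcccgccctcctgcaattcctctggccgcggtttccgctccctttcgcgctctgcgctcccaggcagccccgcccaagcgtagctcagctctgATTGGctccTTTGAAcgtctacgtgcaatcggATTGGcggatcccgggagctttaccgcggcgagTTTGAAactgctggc
Top2a: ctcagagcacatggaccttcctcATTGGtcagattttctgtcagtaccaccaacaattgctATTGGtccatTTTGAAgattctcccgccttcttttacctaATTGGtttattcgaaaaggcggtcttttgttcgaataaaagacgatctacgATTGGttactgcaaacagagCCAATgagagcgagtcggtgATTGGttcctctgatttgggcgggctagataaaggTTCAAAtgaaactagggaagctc

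A CHR match was present in 8 of 11 mitotic genes (72.7%), 2 of 19 replication genes (10.5%) and 1 of 9 cyclin/CDK genes (11.1%), beside 20.23% of all genes with a window. The CCAAT box was in 10 of 11 mitotic genes (90.9%), 13 of 19 replication genes (68.4%) and 4 of 9 cyclin/CDK genes (44.4%), beside 41.06%. Both occurred in 8 of 11 mitotic genes, beside 7.97% of all genes. In the windows shown no CHR match overlapped a CCAAT match, and E2F letters also occur in the Cdk1 window, in lower case here. Matches describe the windows and were not related to the measured values.

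Genes of the same machinery outside the list were read for comparison, 82 of them measured. In 2i-converted against partial cells 24 were called higher and 6 lower (9.36% and 13% of all genes). The counts were 7 and 14 in partial against full iPS cells (12.8% and 5.78%) and 8 and 24 in partial against J1 cells (13.3% and 9.65%). In 2i-converted against J1 cells they were 0 and 0 by limma, with 12 at an unadjusted p under 0.05 and 1.72% of all genes called. Against MEFs the counts were 46 and 4 in 2i-converted cells (19.6% and 17.9% of all genes) and 24 and 2 in partial cells (13.7% and 10%). They were 39 and 7 in full iPS lines (17.1% and 17.8%) and 46 and 5 in J1 cells (20.6% and 17.5%). Of 10 genes listed under origin recognition and kinase 7 were higher and 0 lower in 2i-converted than in partial cells. Orc6, a subunit of the origin recognition complex, rose there by 1.07 ± 0.14 (adjusted p = 2.1e-05), and E2f4, a repressive E2F, by 1.06 ± 0.11 (adjusted p = 1.08e-06). The falls were led by Rb1, the retinoblastoma protein that restrains E2F, at -1.11 ± 0.18 (adjusted p = 0.000158), and by Cdc25b, a phosphatase that activates Cdk1, at -0.85 ± 0.16 (adjusted p = 0.000719). E2f3, an activating E2F factor, and the CDK inhibitor genes Cdkn2a and Cdkn2b were not called there, at -0.58 ± 0.23 (adjusted p = 0.079), -0.54 ± 0.22 (adjusted p = 0.102) and -0.07 ± 0.38 (adjusted p = 0.938).

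Rb1 was also higher in partial than in full iPS cells, by 0.86 ± 0.15 (adjusted p = 0.000557), and than in J1 cells, by 1.16 ± 0.18 (adjusted p = 0.000101). Against MEFs the 2i-converted cells had Chek1, the S phase checkpoint kinase, higher by 1.88 ± 0.28 (adjusted p = 4.72e-05) and Cdkn2c, an inhibitor of Cdk4 and Cdk6, lower with a difference of -1.25 ± 0.15 (adjusted p = 3.74e-06). Fbxo5, an inhibitor of the anaphase-promoting complex, was lower in partial than in J1 cells with a difference of -1.18 ± 0.22 (adjusted p = 0.000736). Of the 2 full lines, EOS3F-28 had less Dut, which prevents uracil from entering DNA, than EOS3F-29, with a difference of -0.81 ± 0.14 (adjusted p = 0.0093), the single call among these 82 genes between the lines, lost without EOS3F-28 replicate 2 (0.0626) or EOS3F-29 replicate 3 (0.0575).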

How the data were processed

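Total RNA of 18 samples was labelled by a whole-transcript sense assay, per the labels' protocols. The authors deposited 1 log2 value per probe set and array, produced with RMA per the submitters' processing notes. Its version is not given in the sources used here. RMA aligns the distributions of the arrays, which takes out any change that most genes share. Of 34760 probe sets 21640 had 1 symbol in the platform annotation, 1321 several and 11799 none listed. Each of 19937 genes was taken from its probe set with the highest mean, which decided 954 genes.

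The model, limma 3.58.1 under R 4.3.3, had 1 mean per group over all 18 arrays and moderated variances (lmFit, eBayes), with Benjamini-Hochberg adjustment over all genes and 11 contrasts. Full iPS cells stand for the mean of both lines. No array column was left unmapped (0 columns). With 3 arrays per group, the number of arrays limits the precision. Promoter letters were read from RefSeq windows on GRCm38.p6. The members and all lists were chosen with earlier results of these data known. Any listed member could be named. Of the other cell cycle genes, the rule took the 2 largest called rises and 2 largest called falls per comparison, together with Cdkn1a (not analysed here), Cdkn2a, Cdkn2b, Rb1, Chek1 and E2f3. Genes were drawn from that set.

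Deviations of equally numbered arrays correlated above 0.1 for each number in 4 comparisons. They were 0.383, 0.14 and 0.122 between 2i-converted and partial cells, and 0.563, 0.454 and 0.15 between 2i-converted and J1 cells. Partial and J1 cells gave 0.208, 0.242 and 0.223, and the full lines gave 0.542, 0.639 and 0.149 between them. These numbers count as pairs here on the strength of the values, since no label states a pairing. It entered as an alternative, the replicate block. Other alternatives were cyclic loess, centring on housekeeping genes, a trended robust fit, the mean of probe sets, leaving out dim genes (mean under 5), 1 full line, only the compared arrays, the number 1 arrays or each array in turn.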

Additional observations from a re-analysis of the deposited data

How the results depend on the processing

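The number of members called was recomputed under each alternative. No share of all genes is given beside these counts, so they describe the processing and not the members. Leaving out 1 array at a time gave 21 to 27 calls in 2i-converted against partial cells (26 with all arrays), 2 to 10 in 2i-converted against full iPS cells (9), 0 in 2i-converted against J1 cells (0), 29 to 35 in 2i-converted cells against MEFs (33), 8 to 14 in partial against full iPS cells (11), 16 to 22 in partial against J1 cells (25), 9 to 25 in partial cells against MEFs (20), 2 to 9 in full iPS against J1 cells (6), 21 to 32 in full iPS cells against MEFs (27), 31 to 37 in J1 cells against MEFs (36) and 0 between the full lines (0). The replicate block gave 3 calls in 2i-converted against J1 cells and 10 in full iPS against J1 cells, where the numbers pair only in part. It gave 31, 32 and 0 in 2i-converted against partial cells, partial against J1 cells and EOS3F-28 against EOS3F-29, and it removed no member's call.

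Centring on housekeeping genes gave 26 calls in 2i-converted against full iPS cells, 36 in 2i-converted against J1 cells and 34 in partial against full iPS cells. It reversed Ccne2 in partial cells against MEFs (-0.01), Gins2 (-0.18) and Ccnd3 (-0.21) in 2i-converted against full iPS cells, and in 2i-converted cells against MEFs Gins2 (-0.30), Cdc45 (-0.006), Ccnd3 (-0.17), E2f1 (-0.22), Aurka (-0.05), Aurkb (-0.078) and Birc5 (-0.077). That shift applies to all genes of an array. Cyclic loess gave 17 calls in partial against full iPS cells. Taking only EOS3F-28 as full cells gave 7 there, and EOS3F-29 gave 3 in 2i-converted against full iPS cells and 2 in full iPS against J1 cells. Leaving out the number 1 arrays of the feeder-grown groups gave 5 calls in 2i-converted against full iPS cells and 1 in 2i-converted against J1 cells. Leaving out dim genes, or fitting only the arrays compared, gave 1 in 2i-converted against J1 cells, and fitting only the arrays compared gave 3 in full iPS against J1 cells. The cause of these changes was not tested. With 3 arrays per group differences as large as those of Bub1 (0.93) and Ccnd1 (-1.01) in 2i-converted against partial cells and Rrm2 (0.92) in 2i-converted against J1 cells were not called, and values near the array medians have little signal over background.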
